A study of Mus musculus with 30 samples.

Results

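Plasma cells that carry IgE were compared with plasma cells that carry IgG1, both sorted from the mesenteric lymph nodes of worm-infected mice. The comparison uses 6 of the 30 arrays of the series, taken by their titles: 4 arrays of IgE plasma cells and 2 of IgG1 plasma cells, which are all the plasma cell arrays there are. All mice were CeGFP animals on the BALB/c background, with a GFP cassette behind an internal ribosome entry site knocked into the 3' untranslated region of the membrane form of IgE. All had been infected with the gut nematode Nippostrongylus brasiliensis, and cells were taken on day 10. Both plasma cell groups were GFP+, CD95+ and CD138+ and differed in the surface isotype stained, IgE or IgG1. In IgG1 cells GFP marks a switch to the epsilon gene on the heavy chain chromosome that makes no antibody, so the IgG1 cells used here are that subset and not IgG1 plasma cells in general. Each array was made from a pool of 3 mice and a separate sort, and the age and sex of the mice are not given in the sources used here. GFP+ germinal centre (GC) cells of each isotype (3 arrays each, B220+ CD95+ CD138-) and naive B cells (3 arrays) from the same experiment are given only beside the plasma cell values.

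Plasma cells are the end stage of the B cell lineage. The factors Blimp-1, IRF4 and XBP1 switch off much of the B cell programme and expand the endoplasmic reticulum for antibody secretion, and survival then rests on receptors such as BCMA and on the BCL2 family. IgE is the isotype of allergy and of the response to worms. IgE-switched cells are known for a short stay in germinal centres and an early move into plasma cells, and IgE plasma cells keep more of the membrane receptor than IgG1 plasma cells do.

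Transcript levels were measured on Affymetrix arrays and are given on the log2 scale, so that a difference of 1 is a doubling. Plasma cell markers were present on all 6 plasma cell arrays. Sdc1, which encodes CD138, was at 9.12, 8.38, 8.66 and 9.03 in IgE and 8.46 and 8.04 in IgG1 plasma cells, against means of 4.88 in IgE GC and 4.59 in naive cells. Prdm1, which encodes Blimp-1, had means of 9.87 and 9.59 in IgE and IgG1 plasma cells against 5.53 in IgE GC cells. The IgG1 plasma cell arrays were less alike than the IgE arrays: over the genes tested they correlated at 0.923, while pairs of IgE arrays correlated at 0.953 to 0.961 and IgE with IgG1 arrays at 0.919 to 0.940. The median absolute difference between the pair of IgG1 arrays was 0.321, against 0.233 to 0.259 within IgE. The number of arrays limits the precision of each value. The p-values rest on a spread pooled over all 18 arrays of the experiment, GC and naive cells included. Among these are 3 arrays of GFP-negative IgG1 GC cells, which also enter the choice of genes tested. The spread is not that of the IgG1 pair alone. A gene's IgG1 mean therefore rests on 2 arrays that stand about as far from each other as from the IgE arrays, and results that rest on 1 of them are marked below.

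Of 12098 genes tested with limma, 116 (0.959%) had an adjusted p under 0.05 for the difference of IgE and IgG1 plasma cells, and are called below. Of these 95 (0.785%) were higher and 21 (0.174%) lower in IgE. The spread was estimated over all 18 arrays of the experiment. When the fit used the 6 plasma cell arrays only, 0 genes passed, with 1410 at an unadjusted p under 0.05 (1575, or 13%, in the fit on 18 arrays). The differences of the called genes were between 0.75 and 3.46 in size, and 94 of them were at least 2-fold. In all 116 the IgE and IgG1 arrays did not overlap, as was the case for 22.3% of all genes tested (12.4% with the IgE arrays above and 9.89% with them below). Leaving out 1 plasma cell array gave 76 to 253 called genes: 253 without IgG1 replicate 1 (184 higher, 69 lower) and 76 without IgE replicate 1. Without IgG1 replicate 2 the count was 107 (60 higher, 47 lower), but 42 of the 116 were among them. In bulk samples such as these, fewer cells of a type and less RNA per cell cannot be told apart. There were 27 genes that kept their call in each of these 6 fits, 22 higher and 5 lower in IgE. Of these, 19 are named as such in what follows. The other 8, all higher in IgE, were the sialyltransferase St3gal6 (1.66), the sphingomyelin synthase Sgms1 (1.41), Slc44a2 of the choline transporter family (1.35), Tmem140 (1.30), the kinase Cilk1 (1.22), the transcription factor Ets2 (1.20), the centrosomal protein Cep57 (1.12) and Pttg1ip (1.11). In 14 of the 116 the lower group lay below the array median on all its arrays, and 6 of these (Ifitm3, Cd9, Enam, Akap6, Slc7a3 and Hnrnpll) were above it in no other group of the experiment than the plasma cells where they were high. These 6 passed the filter on low values only through that group, so that they had to differ, and the size of their differences depends on a signal that may be background. Their p-values and kept calls are therefore no support for a difference, also for Ifitm3, Enam and Akap6, which are among the 27. The others of the 14 were Amn1, Ulk2, Rdh10, Sgms1, Zfp760, L3mbtl3, Arv1 and Arhgap6. The size of their differences also depends on a low level that may be background.

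**Figure D1:**
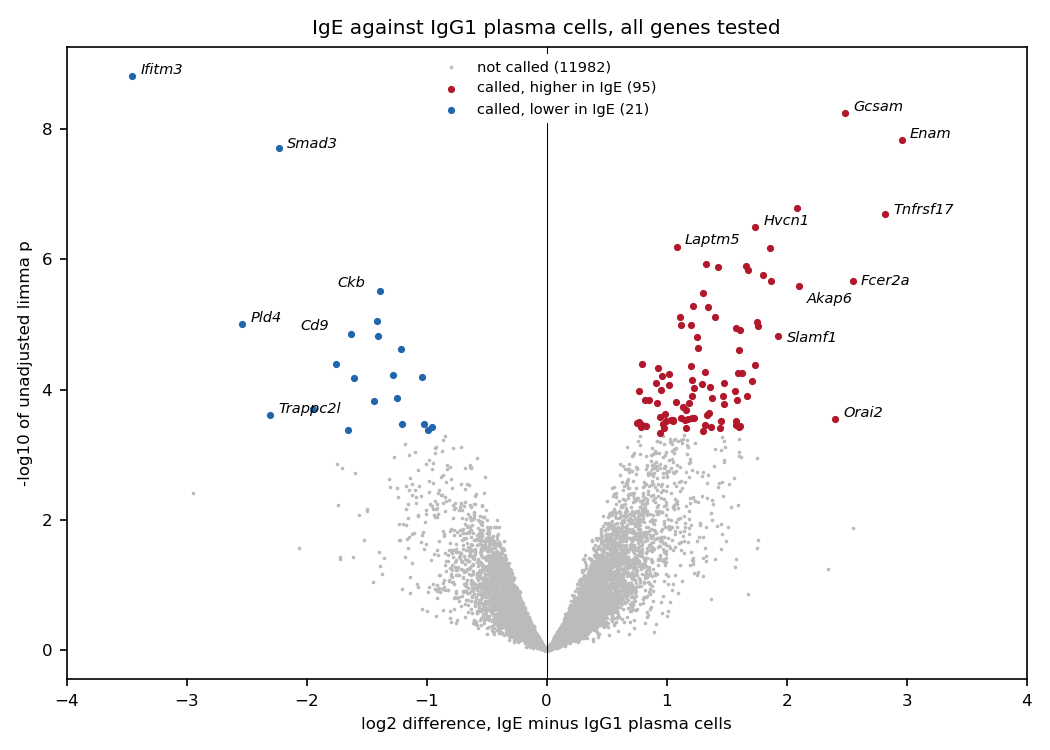
Each point is 1 of the 12098 genes tested, with the log2 difference of IgE minus IgG1 plasma cells on the horizontal axis and -log10 of the unadjusted limma p on the vertical axis; red and blue points are the 95 called higher and 21 called lower in IgE. Ifitm3 and Smad3 stand apart at the lower end and Enam, Gcsam, Tnfrsf17 and Fcer2a at the higher end.

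Several surface receptors were among the genes higher in IgE plasma cells. On the fixed lists there was 1 call among 32 tested cytokine and survival receptors and 2 among 27 inhibitory receptors and phosphatases, against 0.959% of all genes tested. Tnfrsf17 encodes BCMA, the receptor through which APRIL and BAFF sustain plasma cells. It was at 9.48, 9.65, 9.56 and 9.65 on the IgE arrays and at 7.62 and 5.91 on the IgG1 arrays. The IgE arrays were tightly grouped and all above both IgG1 arrays, which were far apart. The difference was 2.82 (SE 0.33, 7.07-fold, adjusted p = 0.000408) and kept its call without each plasma cell array, ranging from 1.97 without IgG1 replicate 2 to 3.68 without IgG1 replicate 1. The other receptors of this ligand pair did not pass: Tnfrsf13b, which encodes TACI, differed by 0.28 and Tnfrsf13c, the BAFF receptor, by 0.09. In GC and naive cells Tnfrsf17 was lower, with means of 5.14 in IgE GC, 4.57 in IgG1 GC and 5.00 in naive cells.

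Fcer2a encodes CD23, the low-affinity receptor for IgE. Its IgE plasma cell arrays were at 8.83, 8.85, 9.31 and 9.91 and its IgG1 arrays at 5.84 and 7.51. There was no overlap, and the level in both groups was below that of GC cells (11.16 in each isotype) and naive cells (11.91). The difference of 2.55 (SE 0.36, 5.85-fold, adjusted p = 0.00161) kept its call without each plasma cell array and was 1.71 without IgG1 replicate 1. It was the only called gene of the 7 tested on the list of IgE handling, where 0.959% of all genes tested were called. Others on it gave 0.33 for Fcer1g, the signalling chain shared by Fc receptors, and -0.07 for Adam10, the protease that sheds CD23.

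Other receptors higher in IgE plasma cells belonged to several families. Slamf1, a receptor of the SLAM family, was at 7.30, 7.60, 7.01 and 6.93 against 4.82 and 5.74 (difference 1.93, SE 0.32, adjusted p = 0.00538). Its arrays did not overlap, but the call was lost without IgG1 replicate 1 (adjusted p = 0.0586). Tigit, an inhibitory receptor best known from T and natural killer cells, was at 9.71, 9.50, 10.39 and 9.60 against 8.46 and 7.92 (1.61, SE 0.26, adjusted p = 0.00482), and lost its call without IgG1 replicate 2 (adjusted p = 0.0787). Its mean was 6.20 in IgE GC and 6.39 in naive cells, so that it was highest in plasma cells of either isotype. Fcmr, the Fc receptor for IgM, differed by 1.36, Cd180, a Toll-like receptor homologue of B cells, by 1.03, and Ly86, which encodes its partner MD-1, by 1.32. Each of these 3 was called and each was lost without IgG1 replicate 2 (adjusted p = 0.156, 0.352 and 0.370) and without IgE replicate 1, the latter pair also without IgE replicate 2 or 3. The receptors described beyond the rule for named genes were chosen after their values were seen.

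Genes of signalling below antigen receptors were also among those called higher. Ptpn6 encodes SHP-1, the phosphatase that inhibitory receptors recruit. It was at 8.53, 8.87, 8.44 and 8.88 in IgE and 6.62 and 7.59 in IgG1 plasma cells, with no overlap (1.57, SE 0.25, 2.98-fold, adjusted p = 0.00453), and was at adjusted p = 0.0509 without IgG1 replicate 1. Samsn1, an adaptor that restrains B cell activation, was at 9.34, 9.33, 9.61 and 9.37 against 7.83 and 8.13 (1.43, SE 0.19, adjusted p = 0.00132). Hvcn1, the voltage-gated proton channel of B cells, was at 8.03, 8.37, 8.43 and 7.75 against 6.14 and 6.68 (1.74, SE 0.21, adjusted p = 0.000561). The call of Samsn1 and of Hvcn1 held without each plasma cell array, as did those of Vav3, a signalling protein of lymphocytes (1.68, adjusted p = 0.00135), and Laptm5, a lysosomal protein that promotes antigen receptor degradation (1.08, adjusted p = 0.000887). Laptm5 was at 12.17, 12.30, 12.10 and 12.18 against 11.02 and 11.19, groups that were narrow and well apart.

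Further signalling genes were called with less support from single arrays. Orai2, a subunit of store-operated calcium channels, was at 7.60, 7.90, 8.62 and 8.93 against 5.74 and 5.98 (2.40, SE 0.52, adjusted p = 0.039), and lost its call without either IgG1 array or without IgE replicate 3 or 4. The value for Orai2 comes from the brighter of 2 probe sets. Sh3bp2, an adaptor of immune receptors, differed by 1.73 (adjusted p = 0.0124) and was lost without IgG1 replicate 2. Lcp2, which encodes the adaptor SLP-76, differed by 1.16 (adjusted p = 0.0421) and was lost in 5 of the 6 fits that left out a plasma cell array. Of the 31 tested genes on the list of B cell receptor signalling, none was called in limma. IgE arrays were above the IgG1 arrays for 7 of the 31 and below for 4, against 12.4% and 9.89% of all genes tested. The median difference of 0.18 stood beside 0.02 for all genes tested. The ends of the list were the kinases Akt1 at -0.67 and Fyn at 0.78. Syk, a proximal kinase, was at -0.41, Cd79a at -0.31, Cd79b at 0.05, Btk at 0.18 and Plcg2 at 0.25. Of the 27 on the list of inhibitory receptors and phosphatases, Ptpn6 and Tigit were called, and Ceacam1 had the lowest value at -0.67. The inhibitory Fc receptor Fcgr2b differed by 0.18 and the inhibitory receptor Btla by 1.30 (adjusted p = 0.089).

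Of the germinal centre programme, 2 of 15 tested genes were called, both higher in IgE plasma cells, where 0.785% of all genes tested were called higher. Gcsam, a GC adaptor protein that modulates receptor signalling and motility, was at 8.18, 8.64, 8.15 and 8.43 in IgE and 6.23 and 5.50 in IgG1 plasma cells. All IgE arrays lay far above the higher IgG1 array, and the difference of 2.48 (SE 0.23, 5.59-fold, adjusted p = 3.42e-05) kept its call without each plasma cell array. Its mean was 10.41 in IgE GC cells and 4.47 in naive cells. Mybl1, a transcription factor of GC cells, was at 6.10, 5.89, 6.73 and 6.97 against 4.64 and 5.50 (1.35, adjusted p = 0.0348), with a GC mean of 11.06, and lost its call without IgG1 replicate 1 and without IgE replicate 3 or 4. Bcl6, the repressor that maintains the GC state, was at 4.53, 5.43, 5.86 and 4.44 against 5.79 and 4.17, overlapping groups that differed by 0.09. Fas, a sort marker, differed by 0.77 (adjusted p = 0.503). At the other end of the list, Gcnt3 was at -0.78, and S1pr2, the receptor that confines GC cells, at -0.72, neither of them called. The median of the list, 0.09, became -0.15 without IgG1 replicate 2.

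On the list of B cell identity, Fcer2a and Ikzf3 were called higher among 25 tested genes, where 0.785% of all genes tested were. The list median was 0.22, with 18 genes above 0. Ikzf3 encodes Aiolos, a zinc finger factor of late B cells. It was at 9.26, 8.51, 8.69 and 9.14 against 7.84 and 7.60 (1.18, adjusted p = 0.039), and was lost without either IgG1 array and without IgE replicate 1 or 4. Genes that did not pass included Irf8 at 1.05 (adjusted p = 0.0588), Cd37 at 0.69, Spi1 at -0.70 and the B cell master factor Pax5 at 0.34. Pax5 was at 6.62, 7.25, 5.43 and 6.43 in IgE and 5.49 and 6.70 in IgG1 plasma cells, overlapping levels below the GC mean of 11.11. Ms4a1, which encodes CD20, differed by 0.49, and Ptprc, which encodes CD45, by 0.15. Of the 14 MHC class II presentation genes, none was called in limma (5 had IgE arrays above the IgG1 arrays, which 12.4% of all genes tested had). Their median was 0.22, with Cd74, the invariant chain, at 0.15 and Cd40, the receptor for T cell help, at 1.04 (adjusted p = 0.0563).

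Among 20 tested genes of the NF-kB and CD40 response, Rel and Nfkbie were called, both higher in IgE plasma cells (0.785% of all genes tested were called higher). Of the 20 differences 19 were above 0 (median 0.34, against 0.02 over all genes tested, of which 52.6% were above 0). Rel encodes c-Rel, the NF-kB subunit most tied to B cell activation. It was at 6.36, 6.61, 5.89 and 6.78 in IgE and 5.37 and 5.00 in IgG1 plasma cells (1.22, SE 0.24, adjusted p = 0.0192). Nfkbie, an inhibitor that holds NF-kB dimers in the cytoplasm, was at 6.97, 6.74, 7.30 and 7.41 against 6.05 and 5.57 (1.29, SE 0.25, adjusted p = 0.0176). Neither gene's groups overlapped, and both calls were lost without IgG1 replicate 2 (adjusted p = 0.163 and 0.168). For c-Rel both plasma cell means were below those of IgG1 GC (10.11) and naive cells (10.18). Nfkb2 at 1.06 (adjusted p = 0.0898), Bcl3 at 1.15, Nfkbia at 1.05 and Rela at -0.16 did not pass. The calls of Rel and Nfkbie were also lost with replicate number as a block in the fit and with array weights. Without IgG1 replicate 1 the median of the list was 0.54, but this leaves the IgG1 array with the lower median level. By summed signal replicate 1 was the lower, at 3286 against 3518 on replicate 2 and 4111 to 4692 on the IgE arrays. The median level of the list was 6.75 on IgG1 replicate 1 and 6.48 on replicate 2, against 7.03 to 7.37 on the IgE arrays.

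The promoters of the called NF-kB genes are shown because NF-kB genes are themselves known targets of the factor. The 10-base NF-kB consensus was searched on both strands of RefSeq promoter windows, 250 bases before to 50 after each gene start in assembly GRCm38.p6. It was found in 2779 of 32851 windows (8.46%) and in at least 1 window of 8 of the 16 list genes that had one, against 9.55% of all genes. The matches of the called genes are printed on the gene's own strand with 10 bases on each side and the matching letters in capitals, at chr11:23771042-23771071 (minus strand) and chr17:45555584-45555613 (plus strand).
Rel: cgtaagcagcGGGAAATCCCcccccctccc
Nfkbie: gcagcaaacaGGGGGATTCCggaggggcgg
The first base of the match was at position -92 from the start of Rel and -106 from that of Nfkbie. The Rel letters match on both strands, and a further match on the opposite strand, at -91, overlaps them. These matches describe the sequence alone, since binding was not measured.

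Enam, Slc7a3 and Akap6 were above the array median in IgE plasma cells alone. Enam encodes enamelin, a matrix protein of tooth enamel. It was at 7.28, 7.09, 6.85 and 7.19 in IgE and 3.72 and 4.58 in IgG1 plasma cells. The difference was 2.96 (SE 0.29, adjusted p = 5.9e-05), and the arrays of IgG1 plasma cells, like those of IgE GC (mean 3.72) and naive cells (mean 3.23), all lay below the array median, so that no fold is given. Slc7a3, a transporter of cationic amino acids, had a like layout, with 6.93, 6.04, 6.56 and 6.65 against 4.25 and 5.31 and a mean of 3.97 in IgE GC cells (1.76, adjusted p = 0.00446), and was at adjusted p = 0.0509 without IgG1 replicate 1. Akap6, an anchor of protein kinase A, was at 5.43, 6.68, 6.91 and 6.41 against 4.14 and 4.38 (2.10, adjusted p = 0.00185). Lrrn3, a membrane protein with leucine-rich repeats, was at 9.36, 8.83, 8.82 and 9.32 against 7.63 and 6.80 (1.87, adjusted p = 0.00161), and both of its plasma cell groups were above the IgE GC mean of 5.52. Lrrn3 kept its call without each plasma cell array. So did Enam and Akap6, but these passed the filter on low values only through the IgE plasma cells, which makes their p-values and kept calls no support. Slc7a3 passed the filter in the same way, so that its p-value is no support either.

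For Amn1 and Kin the IgE plasma cells were near the IgE GC level and the IgG1 plasma cells below it. Amn1, related to a yeast regulator of mitotic exit, was at 6.26, 5.98, 6.66 and 6.65 in IgE and 4.44 and 4.17 in IgG1 plasma cells (2.08, adjusted p = 0.000393), with means of 5.99 in IgE GC and 6.38 in naive cells. Kin, a protein that binds DNA and RNA, differed by 1.86 (adjusted p = 0.000887) with 7.42 in IgE plasma cells and 7.63 in IgE GC cells. Rdh10, a retinol dehydrogenase, differed by 1.80 (adjusted p = 0.0015) and Rnf122, a RING finger protein, by 1.75 (adjusted p = 0.00436). All but Rnf122, which was lost without IgG1 replicate 2, kept their calls without each plasma cell array. Over the 95 genes called higher, the median level was 7.60 in IgE plasma cells, 6.26 in IgG1 plasma cells, 7.36 in IgE GC, 7.32 in IgG1 GC and 7.21 in naive cells. The IgG1 plasma cells thus had the lowest of the 5 medians, and no test was made of it, since these genes were chosen for the plasma cell difference.

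**Figure D2:**
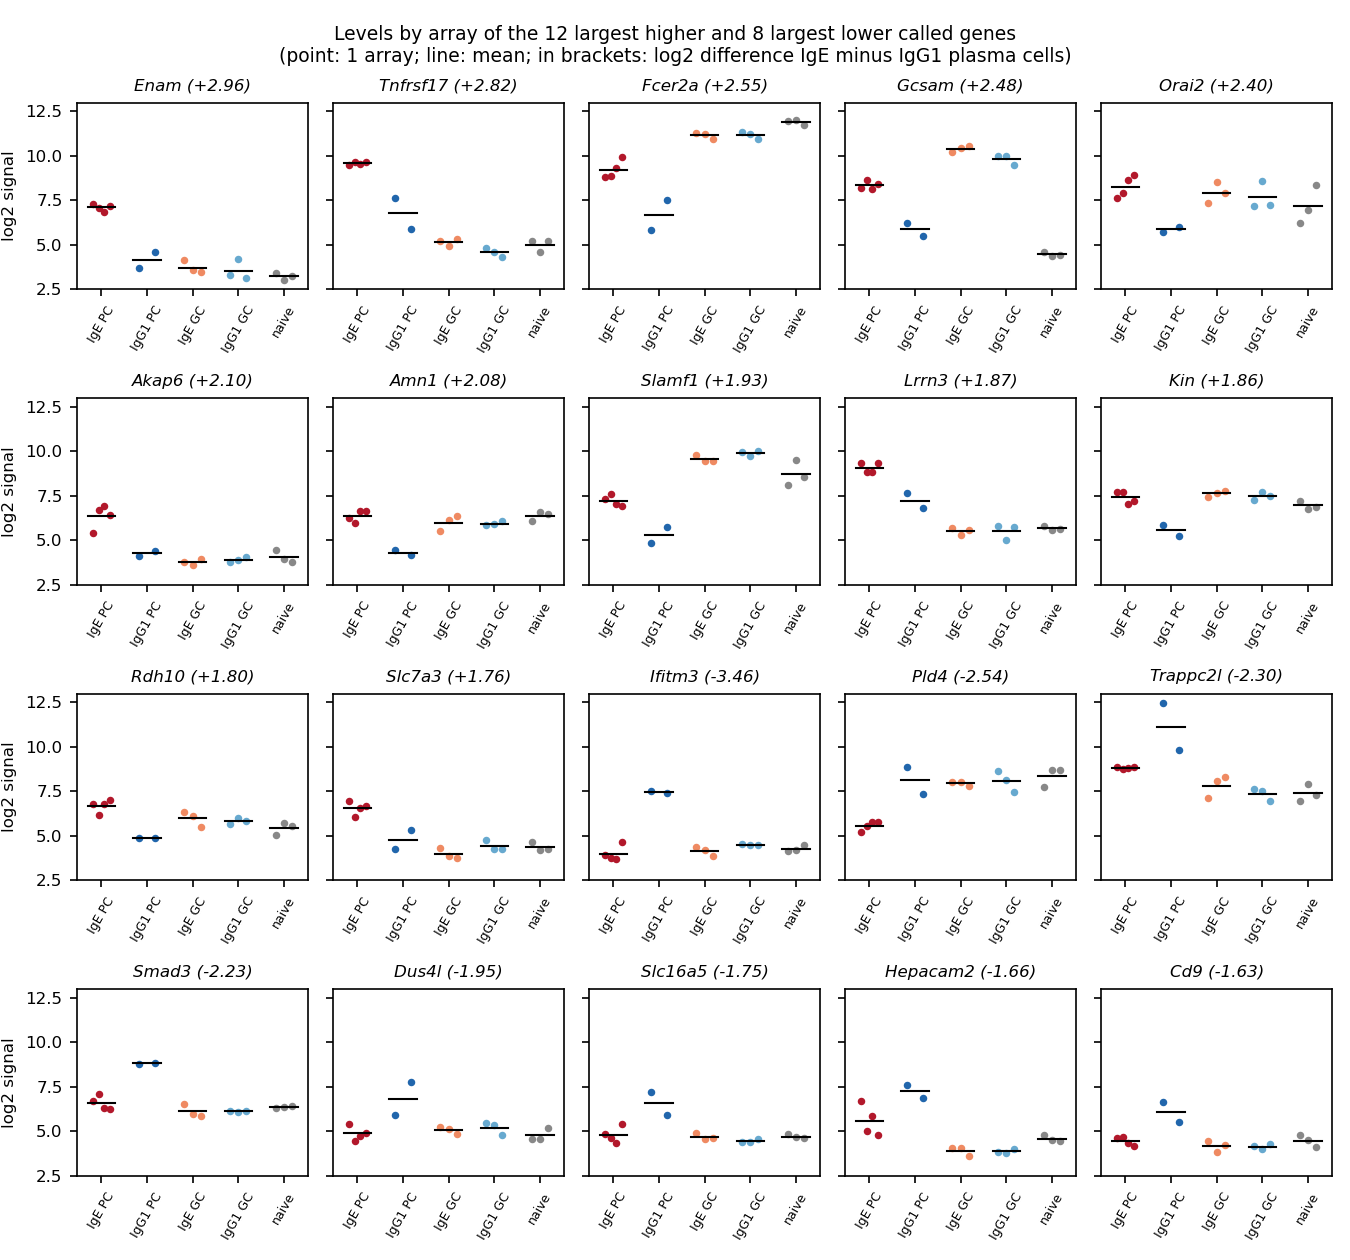
Log2 signal of the 12 called genes with the largest difference higher in IgE and the 8 with the largest difference lower in IgE plasma cells (PC), with 1 point per array and a line at the mean; GC cells of IgE and of GFP+ IgG1 type and naive B cells stand beside them. Enam, Akap6 and Slc7a3 are high in IgE plasma cells against every other group shown, and Ifitm3, Smad3 and Cd9 are high in IgG1 plasma cells against every other group shown.

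Of 34 tested genes of the unfolded protein response, Hyou1 and Sesn2 were called, both higher in IgE, where 0.785% of all genes tested were called higher. The differences of 31 of the 34 were above 0, the median was 0.29, and 19 had all IgE arrays above both IgG1 arrays, which 12.4% of all genes tested had. The summed signal of the list was 72159 to 75781 in IgE and 54587 to 63530 in IgG1 plasma cells, without overlap. Hyou1, a chaperone of the endoplasmic reticulum, was at 11.10, 11.08, 11 and 10.93 against 10.43 and 10.09 (0.77, 1.70-fold, adjusted p = 0.0395), and Sesn2, a stress-induced brake on mTORC1, at 6.96, 6.69, 7.46 and 7.19 against 6.32 and 5.85 (0.99, adjusted p = 0.0357). For neither gene did the groups overlap, but both calls were lost without IgG1 replicate 2 (adjusted p = 0.295 and 0.279), that of Hyou1 also without each IgE array and that of Sesn2 without IgE replicate 1, 3 or 4. The highest values of the list, which were not called, were those of Asns, described below, and Chac1, a glutathione-degrading enzyme (1.41, adjusted p = 0.0638). Hspa5, the chaperone BiP, differed by 0.45 (adjusted p = 0.269), Ddit3, which encodes CHOP, by 0.44 and Xbp1 by -0.33. Of 49 tested genes of entry into the endoplasmic reticulum and vesicle transport, none was called in limma. IgE arrays were above the IgG1 arrays for 13 of the 49 and below for 1, against 12.4% and 9.89% of all genes tested. The median was 0.08, with Golgb1, a Golgi tether, highest at 0.88 (adjusted p = 0.0841).

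Amino acid and tRNA charging genes had a median of 0.40 with 23 of 25 tested genes above 0 and 10 with IgE arrays above both IgG1 arrays, which 12.4% of all genes tested had. None passed the adjusted threshold in limma. Asns, asparagine synthetase and a target of ATF4, was at 8.58, 8.77, 8.93 and 8.64 in IgE and 6.81 and 7.69 in IgG1 plasma cells (1.48, adjusted p = 0.0772). Sars, a seryl-tRNA synthetase, differed by 1.08 (adjusted p = 0.0627) and Slc3a2, the heavy chain of amino acid transporters, by 0.85 (adjusted p = 0.116). Asns is on the unfolded protein response list too, so these lists are not separate. Psat1, of serine synthesis, was lowest at -0.18.

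Autophagy and lysosome genes had a median of 0.40. Ulk2 and Tfeb were called among 26 tested, both higher in IgE, where 0.785% of all genes tested were called higher. Ulk2, a kinase that starts autophagy, was at 6.0, 6.11, 6.33 and 6.63 against 4.98 and 4.90 (1.33, SE 0.18, adjusted p = 0.00132) and kept its call without each plasma cell array. Tfeb, the factor that drives lysosome genes, was at 6.75, 6.53, 6.69 and 6.73 against 5.72 and 5.99 (0.82, adjusted p = 0.0415), and its call was lost in each of the 6 fits without a plasma cell array. Map1lc3b, which encodes an LC3 protein, was at -0.69 and not called. Cholesterol synthesis genes had a median of 0.36 with 20 of 24 above 0, led by Lss at 1.00 and Mvd at 0.99. None was called in limma (7 had IgE arrays above the IgG1 arrays, which 12.4% of all genes tested had).

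**Figure D3:**
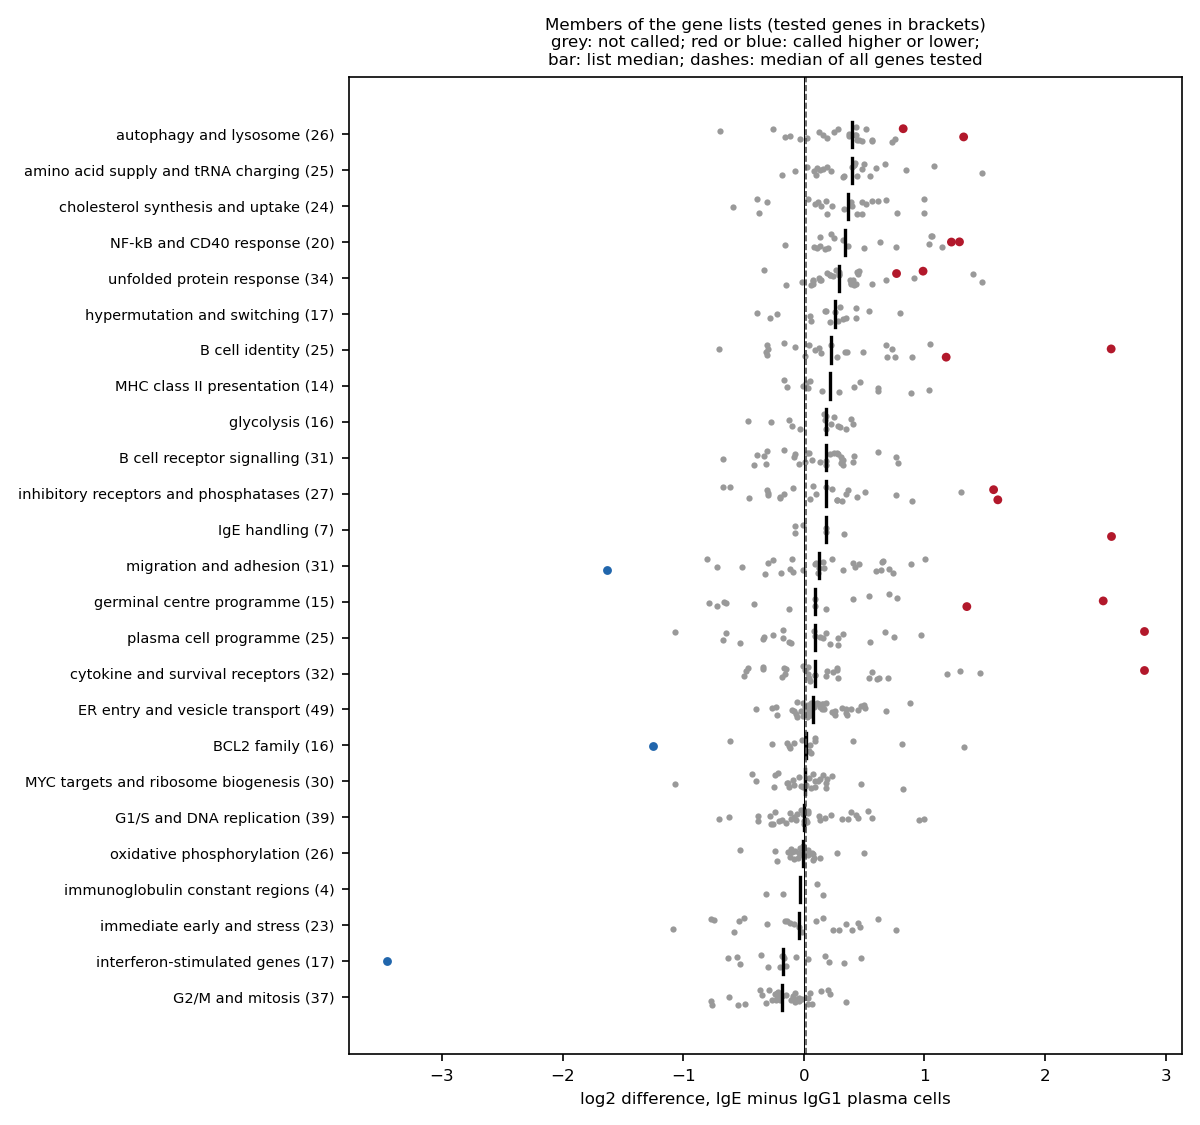
Each point is the log2 difference of IgE minus IgG1 plasma cells for 1 tested gene of a list, with called genes in red (higher in IgE) or blue (lower), a bar at the list median and a dashed line at 0.02, the median of all genes tested. Among these 25 pathway lists the highest medians are those of autophagy and of amino acid supply (0.40 each), the lowest that of G2/M (-0.18), and each list holds at most 2 called genes.

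Among genes lower in IgE plasma cells, Ifitm3 and Cd9 were above the array median on the IgG1 plasma cell arrays alone. Ifitm3, an interferon-induced membrane protein that restricts virus entry, was at 3.89, 3.73, 3.70 and 4.67 on the IgE arrays and at 7.53 and 7.38 on the IgG1 arrays. The difference was -3.46 (SE 0.29, adjusted p = 1.85e-05) against a signal below the array median, so that no fold is given, and the IgE level was that of IgE GC (4.15), IgG1 GC (4.49) and naive cells (4.28) to within their spread. The call held without each plasma cell array, with values of -3.68 to -3.36, but Ifitm3 passed the filter on low values only through the IgG1 plasma cells. Its p-value and kept call are therefore no support, and the gene was not tested under the stricter filter. Other interferon-stimulated genes were not called: Ifitm1 was at -0.18, Ifitm2 at 0.33, Irf7 at 0.18, Bst2 at -0.35 and Oas2 at -0.16. Ifitm3 was the only call among 17 tested, where 0.959% of all genes tested were called, and the list median of -0.175 became 0.12 without IgG1 replicate 1.

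Smad3, which carries TGF-beta signals to the nucleus, was at 6.71, 7.11, 6.29 and 6.25 in IgE and 8.80 and 8.85 in IgG1 plasma cells. The difference of -2.23 (SE 0.22, 4.70-fold lower, adjusted p = 5.9e-05) kept its call without each plasma cell array, and the IgE level stood next to those of IgE GC (6.12) and naive cells (6.37). Tgfbr2, a chain of the receptor, differed by 0.54 and Tgfbr1 by -0.01, neither called. Pld4, an endolysosomal exonuclease, was at 5.20, 5.54, 5.80 and 5.77 against 8.88 and 7.35 (-2.54, 5.81-fold lower, adjusted p = 0.00436). Here the IgG1 plasma cells were at the level of IgE GC (7.95) and naive cells (8.38) and the IgE plasma cells below it. The call for Pld4 held without each plasma cell array, at -1.77 and adjusted p = 0.0495 without IgG1 replicate 1.

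Surface molecules lower in IgE plasma cells were Cd9, Spn, Tnfsf10 and Hepacam2. Cd9, a tetraspanin, was at 4.64, 4.68, 4.31 and 4.18 against 6.62 and 5.54 (-1.63, adjusted p = 0.00538), and was at adjusted p = 0.0586 without IgG1 replicate 1. Cd9 passed the filter on low values only through the IgG1 plasma cells, so that its p-value and call are no support. Under the stricter filter Cd9, Tnfsf10 and Slc16a5, described below, were not tested. Spn, which encodes the sialoglycoprotein CD43, was at 7.74, 8.26, 8.15 and 7.54 against 9.44 and 9.21 (-1.40, adjusted p = 0.00538), and kept its call without each plasma cell array. Both isotypes were above the Spn level of IgE GC cells (6.14). Tnfsf10, which encodes the death ligand TRAIL, was at 5.33, 5.28, 4.70 and 6.08 against 6.89 and 6.68 (-1.44, adjusted p = 0.0252), and Hepacam2, an adhesion molecule of the immunoglobulin superfamily, at 6.69, 5.02, 5.86 and 4.77 against 7.61 and 6.88 (-1.66, adjusted p = 0.0443). Both lost their calls without either IgG1 array, Tnfsf10 also without IgE replicate 1 or 2 and Hepacam2 also without IgE replicate 2, 3 or 4. Cd9 was the only call on the migration and adhesion list of 31 tested genes, where 0.959% of all genes tested were called. The homing receptor Cxcr4 was at 9.55, 10.45, 9.81 and 10.12 against 10.53 and 11.04, lower on all IgE arrays but not called (-0.80, adjusted p = 0.0841).

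In the BCL2 family 1 of 16 tested genes was called, where 0.959% of all genes tested were called. Bcl2l1, which encodes the survival protein BCL-XL, was at 6.55, 6.34, 6.59 and 6.60 in IgE and 7.89 and 7.65 in IgG1 plasma cells. The groups did not overlap (-1.25, SE 0.25, 2.38-fold lower, adjusted p = 0.0242), but the call was lost without either IgG1 array or without IgE replicate 1 or 2 (adjusted p at most 0.0993). Bcl2 itself ran the other way without passing, at 5.85, 6.80, 6.96 and 8.50 against 5.55 and 5.84 (1.33, adjusted p = 0.231), and its IgE arrays were spread widely. Mcl1, on which plasma cells depend, was at 10.47, 10.29, 10.50 and 10.56 against 10.55 and 10.17 (0.09). Of the genes for death signals, Bcl2l11, which encodes BIM, differed by 0.05 and Bmf by -0.61.

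Other genes lower in IgE plasma cells had varied roles. Ckb, a creatine kinase, was at 8.66, 8.72, 8.52 and 7.99 against 10.06 and 9.67 (-1.39, adjusted p = 0.00209), and kept its call without each plasma cell array. Tle3, a corepressor of the Groucho family, was at 5.90, 6.03, 5.97 and 5.80 against 7.15 and 7.53 (-1.41, adjusted p = 0.00436), and lost it without IgG1 replicate 2. Isoc1, an isochorismatase-domain protein, differed by -1.60 (adjusted p = 0.0155) and Arhgap6 by -1.28 (adjusted p = 0.0153), and both were lost without IgG1 replicate 1. Some large values rested on 1 IgG1 array. Trappc2l, of the TRAPP vesicle tether, was at 8.88, 8.75, 8.81 and 8.88 against 12.45 and 9.81 (-2.30, adjusted p = 0.0363) and was at -0.99 and not called without IgG1 replicate 1, and it was not called without each IgE array either. Dus4l, of the tRNA dihydrouridine synthase family, was at 5.41, 4.47, 4.73 and 4.91 against 5.90 and 7.75 (-1.95, adjusted p = 0.0313) and was at -1.02 and not called without IgG1 replicate 2, nor was it called without IgE replicate 2, 3 or 4. Slc16a5, of the monocarboxylate transporter family, was at 4.86, 4.64, 4.34 and 5.42 against 7.21 and 5.93 (-1.75, adjusted p = 0.0123) and was lost without IgG1 replicate 1.

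Small RNA genes were also among the 21 genes lower in IgE. The probe set for Mir345, a microRNA gene, was at 6.91, 6.73, 6.52 and 6.29 against 7.16 and 8.05 (-0.99, adjusted p = 0.0443), and that for the small nucleolar RNA gene Snord55 at 6.19, 6.48, 6.17 and 6.36 against 7.05 and 7.98 (-1.21, adjusted p = 0.00786). In each the second IgG1 array was the higher, and both calls were lost without it (adjusted p = 0.429 and 0.117), that of Mir345 also without IgE replicate 2, 3 or 4. The array does not tell the hairpin of a microRNA gene from its mature arms. The arms that the gene gives are shown with their seed, bases 2 to 8, in capitals, from RefSeq (GRCm38.p6, chromosome 12, plus strand).
mmu-miR-345-5p: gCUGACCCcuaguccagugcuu
mmu-miR-345-3p: cCUGAACUaggggucuggagac
The seeds differ, so the arms would pair with different sites.

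Tnfrsf17 was the only call among 25 tested genes of the plasma cell programme, where 0.959% of all genes tested were called. Of the 25, 7 had IgE arrays above both IgG1 arrays and 2 below, against 12.4% and 9.89% of all genes tested. The list's median of 0.09 became -0.01 without IgG1 replicate 2. Irf4 was at 11.06, 10.78, 10.93 and 10.91 against 10.86 and 10.79 (0.09), Xbp1 at 11.43, 11, 11.55 and 11.05 against 11.70 and 11.49 (-0.33), and Sdc1 differed by 0.55 (adjusted p = 0.306). Jchain, which joins polymeric antibody, was at 12.72, 12.64, 12.68 and 12.67 against 12.58 and 12.45, a difference of 0.16 with an SE of 0.50 from the pooled spread. Trib1, a pseudokinase of plasma cell differentiation, had the next largest value of the list at 0.97 (adjusted p = 0.0728). The lowest values were those of Ly6d, a lymphocyte surface protein, at -1.07 and of Cd28, a receptor that supports plasma cell survival, at -0.67.

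No immunoglobulin gene was called in limma among 11 tested, 8 of them variable genes, with differences of -0.49 to 0.73. Ighm was at -0.17, Igha at 0.11 and Ighg3 at -0.31, and all of these are uncertain, since members of this family share sequence. The constant regions of epsilon, gamma-1 and kappa lacked a probe set annotated to them alone, so that the transcripts behind the stained isotypes were not analysed here.

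Cell cycle, growth and respiration lists held no called gene in limma. The G2/M list of 37 tested genes had a median of -0.18 with 8 above 0, led downward by Nek2 (-0.77) and Nusap1 (-0.76). But 3 genes had IgE arrays below the IgG1 arrays, which 9.89% of all genes tested had, and the median was 0.07 without IgG1 replicate 2. Mki67, a marker of dividing cells, was at 10.53, 10.61, 10.62 and 10.65 against 10.62 and 10.45, both far above the naive mean of 4.91. G1/S genes had a median of 0.00, MYC targets 0.01 with Myc at -0.13, glycolysis 0.19 and oxidative phosphorylation -0.0049. The medians of G1/S, MYC targets and the BCL2 family changed sign between alternatives. Immediate early genes had a median of -0.04 with Fos at -0.77 (adjusted p = 0.583), and hypermutation and switching genes 0.26 over 17 tested. A p that misses the threshold does not show that these levels were equal.

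The isotype difference in plasma cells was tested against the same difference in GC cells. Between IgE and GFP+ IgG1 GC cells limma called 0 genes, with 264 (2.18%) at an unadjusted p under 0.05 and 0 calls in each other setting run. The isotype difference itself differed between the stages for 11 genes (0.0909%, with 822, or 6.79%, at an unadjusted p under 0.05), and all 11 were called in plasma cells. In 3 of them, Enam (2.79), Ifitm3 (-3.12) and Slc7a3 (2.23), both GC groups lay below the array median on all arrays, so that no GC difference could show and the test says nothing of the stage. The other 8 had GC arrays above the median. For Smad3 the values were -2.23 and -0.01 (-2.22, adjusted p = 0.00944). Hvcn1 (1.92), Amn1 (2.03), Samsn1 (1.52), Cilk1 (1.48), a kinase of cilium assembly, and Ulk2 (1.38) had positive differences of differences with GC values between -0.26 and 0.05. Gcsam had 0.58 in GC cells, of the same sign as in plasma cells (1.90, adjusted p = 0.0268), and Isoc1 0.75, of the opposite sign (-2.35, adjusted p = 0.0367). Tnfrsf17 and Fcer2a did not pass this test (2.26, adjusted p = 0.0756, and 2.55, adjusted p = 0.0594).

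The number of these genes moved with single arrays. It was 8 or 9 without IgE plasma cell replicate 1, 2 or 3, and 4 without replicate 4. Leaving out IgE GC replicate 1, 2 or 3 gave 5, 2 or 4. Leaving out GFP+ IgG1 GC replicate 1, 2 or 3 gave 3, 7 or 5. Without IgE GC replicate 2 both calls were negative, so that none of the 8 positive genes, Gcsam included, kept its call in that fit. Without IgG1 plasma cell replicate 1 or 2 it was 35 or 37, of which 7 each were among the 11.

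**Figure D4:**
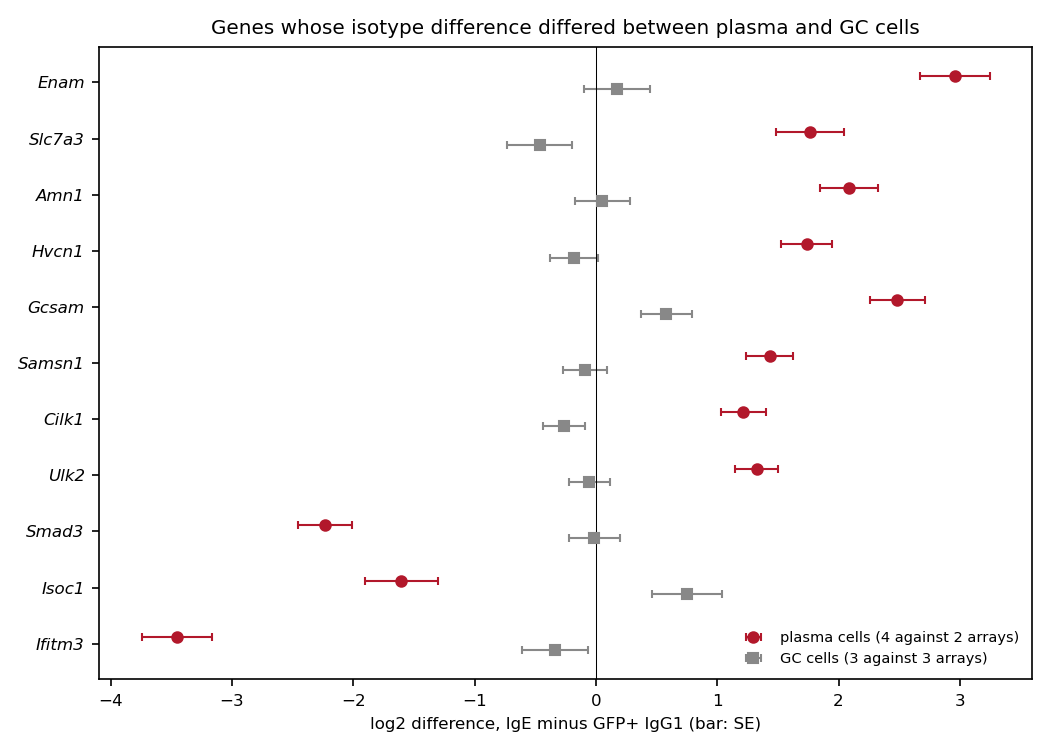
Log2 difference of IgE minus GFP+ IgG1 cells, with its SE from the fit, for the 11 genes whose isotype difference differed between plasma cells (red circles, 4 against 2 arrays) and GC cells (grey squares, 3 against 3 arrays). Plasma cell values run from -3.46 for Ifitm3 to 2.96 for Enam, while the GC values lie between -0.46 and 0.75, those of Enam, Slc7a3 and Ifitm3 from signals below the array median.

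Markers of other cell types were looked at beside these results. None of the tested markers on 7 lists was called in limma. T cell markers had a median of -0.08 over 9 tested genes, with Cd3d at -1.02 and Cd3e at -0.79. Of the 9, 1 was above 0. IgE arrays were below both IgG1 arrays for 3 and above for 0, against 9.89% and 12.4% of all genes tested. These numbers were 3 and 0 of 9 stromal, 1 and 0 of 7 neutrophil and eosinophil, and 2 and 1 of 7 macrophage and dendritic cell markers. Of these 3 lists 4, 1 and 3 genes were above 0. No marker of the other 3 lists had groups apart. Cd3d was at 4.47, 3.78, 4.18 and 4.62 in IgE and 4.50 and 6.06 in IgG1 plasma cells, so that the second IgG1 array was the highest. The summed signal of the 11 measured T cell markers was 1518 to 2145 in IgE and 1888 to 2750 in IgG1 plasma cells, and Cd3g, Cd4 and Il7r were below the array median on all 6 arrays. Natural killer markers summed to 187 to 205 and 188 to 333, macrophage and dendritic cell markers to 794 to 969 and 569 to 890, and neutrophil and eosinophil markers to 774 to 1326 and 931 to 1108. Basophil and mast cell markers summed to 302 to 472 and 315 to 365, stromal and endothelial markers to 613 to 871 and 779 to 867, and erythroid markers to 138 to 167 and 155 to 157. In IgE GC cells the 7 sums, in this order of lists, were 534 to 715, 148 to 188, 579 to 660, 291 to 353, 303 to 311, 701 to 964 and 144 to 152. Single genes weigh much in such sums: on the log2 scale Thy1 was at 10.16 on IgE replicate 2 and Il5ra at 9.57 on IgE replicate 4. On all IgE arrays 6 of 11 T cell, 9 of 10 natural killer, 12 of 16 basophil and mast cell, 9 of 16 macrophage and dendritic cell, 7 of 12 neutrophil and eosinophil and 6 of 14 stromal markers measured were below the array median. On both IgG1 arrays these numbers were 3, 9, 13, 10, 7 and 7. The part of any of these cells in the results was not tested. B cell identity genes, which would follow GC or naive cells in the sort, summed to 17184 to 17826 in IgE and 14971 to 16576 in IgG1 plasma cells. The sum was higher in IgE, against 43017 to 45382 in IgE GC cells. Of 25 tested genes on that list 18 were above 0, from Spi1 at -0.70 to Fcer2a at 2.55. On the germinal centre list 9 of 15 were, from Gcnt3 at -0.78 to Gcsam at 2.48, where 52.6% of all genes tested were above 0. Bcl6 and Pax5 differed by 0.09 and 0.34 in the same arrays, and the part of such cells in the result was not tested.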

How the data were processed

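The deposited values are log2 signals of 34760 probe sets on 30 Affymetrix Gene ST arrays, made by the authors before deposit. The submitters' processing notes name RMA and R 2.15.2. RMA equalises the distribution of signals between arrays, and no source used here says if all arrays were processed together. RNA (2 ng) was amplified before labelling, per the labels' protocols.

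Genes were taken from the 21640 probe sets with 1 symbol, updated by Entrez ID to RefSeq names (GRCm38.p6), keeping for each gene the probe set with the highest mean over all arrays. The 12098 genes above the array median on at least 2 of the 18 arrays of the experiment were fitted with limma 3.58.1 (lmFit, eBayes; R 4.3.3), 1 mean per group with no covariate. Contrasts were IgE minus IgG1 plasma cells, the same in GFP+ GC cells, and their difference, each with Benjamini-Hochberg adjustment over all genes tested and called at an adjusted p under 0.05. Every adjusted p in the text is from limma. The fits were tested on simulated data. The alternatives were the arrays of the compared groups only, other filters, a further quantile normalization, a replicate block, a mean-variance trend, array weights, every probe set, and leaving out each array.

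Named genes are the 15 called genes with the largest difference in each direction, the 5 interaction genes of smallest p in each direction, called and extreme list members, and a fixed set of plasma cell, GC and B cell genes. Genes beyond this rule were chosen after their values were seen. The comparison and the gene lists were chosen with earlier results of these data known.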

Additional observations from a re-analysis of the deposited data

Results flagged for a closer look

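The isotype difference was of another size in plasma cells than in GC cells for 11 genes, by limma's test of the difference of differences. These differences of differences were 2.79 for Enam, 2.23 for Slc7a3, 2.03 for Amn1, 1.92 for Hvcn1, 1.90 for Gcsam, 1.52 for Samsn1, 1.48 for Cilk1 and 1.38 for Ulk2. They were -3.12 for Ifitm3, -2.35 for Isoc1 and -2.22 for Smad3. For Enam, Slc7a3 and Ifitm3 both GC groups lay below the array median, so that the test says nothing of the stage.

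In 8 of 186 genes looked at, 1 of the 4 IgE plasma cell arrays lay far from the other 3 by Dixon's gap ratio (past the 95% critical value), where chance gives about 1 in 20. Replicate 1 was high for Chst11 (8.4), Epor (5.695) and Hdac9 (9.04) and low for Rela (8.30). Replicate 2 was high for Lyz2, a macrophage and neutrophil lysozyme (6.11, the nearest array at 4.34), and Surf2 (7.77). Replicate 3 was high for Samsn1 (9.61), and replicate 4 was low for Lmf1 (8.14).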

How the results depend on the processing

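The 116 plasma cell calls (95 higher, 21 lower in IgE) became 0 when only the 6 plasma cell arrays entered the fit, 46 with array weights (all among the 116) and 72 with a replicate block (60 among the 116). A further quantile normalization gave 84, of which 60 were higher and 24 lower (71.4% higher against 81.9%). Filters, the mean-variance trend and every probe set gave 103 to 120. Leaving out 1 plasma cell array gave 76 to 253. The 11 interaction calls became 1 in the fit on the compared groups, 5 with the replicate block and 17 with array weights, and 2 to 37 without 1 array. The 1 interaction call left in the fit on the compared groups was negative, as were the 2 left without IgE GC replicate 2. The cause of these changes was not tested. The fit on the 6 plasma cell arrays has fewer arrays and also leaves GC and naive cells out of the estimate of the spread. Among plasma cells, replicate numbers are shared by 2 pairs of IgE and IgG1 arrays, whose deviations from their group means correlated at 0.121 and 0.0701. Same-number pairs of IgE and GFP+ IgG1 GC arrays correlated at 0.005 to 0.222. Same-number pairs of plasma and GC cells of an isotype were at 0.045 to 0.088. All of these were above 0, while pairs of unlike numbers ran from -0.20 to 0.12. The labels do not say what a number marks, and a shared effect was not tested, so the block was kept as an alternative. No call reversed. Of 32 list medians, 13 changed sign in some alternative. With 2 IgG1 arrays, smaller differences could go uncalled, and Hyou1, Tfeb, Lcp2, Trappc2l and Hepacam2 each lost their calls in at least 5 fits without 1 array.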

Other observations

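The cytokine receptor and migration lists held further genes with large differences that were not called. Il2rb, a chain of the receptors for interleukin 2 and 15, was at 1.46 (adjusted p = 0.11 in limma) and Il21r, the receptor for interleukin 21, at 1.30 (adjusted p = 0.141), neither of them called. Rgs1, which dampens chemokine signals, was at 1.01, and S1pr4, a sphingosine phosphate receptor, at 0.89, while Il9r was at -0.49 and Il6ra at -0.48. On the list of G1/S and DNA replication, Ccne2, a cyclin of S phase entry, had the highest value at 1.00 (adjusted p = 0.189) and Ccnd2, a D-type cyclin, the lowest at -0.70. In the hypermutation and switching list, the repair endonucleases Apex2 at 0.80 and Apex1 at 0.54 were highest.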
